A study of Mus musculus with 12 samples.

Results

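The comparison described here is that of whole blood RNA between mice treated with *Akkermansia muciniphila*, a mucus-dwelling gut bacterium, and control mice. It covers all 8003 genes of the deposited blood table and 6 of the 12 libraries of the series, the others being from the hippocampus of the same study. The Akk group had 3 mice and the Ctrl group had 3 mice, with 1 library per mouse, and they are called Akk 1 to 3 and Ctrl 1 to 3 by the replicate numbers of their labels. All mice were C57BL/6 animals of 15 months. Per the labels the treated mice received a membrane protein of the bacterium, for 8 weeks by the sample field and for 6 weeks by the protocol field, and the controls were normal. The paper's methods instead describe gavage with the bacterium, live or pasteurized, or with vehicle, after antibiotics in the drinking water, and state that the RNA came from animals whose gut it had not colonized. Which of these the 3 treated mice received cannot be settled from these sources, so the group is called Akk here only as a name.

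Blood RNA from a whole sample is a mixture of messages from neutrophils, monocytes, lymphocytes, natural killer (NK) cells, platelets and young red cells. Type I interferons, released when cells sense viral or microbial nucleic acids, bind a receptor on nearly every cell and act through receptor kinases on transcription factors, which enter the nucleus and switch on many antiviral genes at a short DNA motif called the ISRE. A low tonic output of these genes is present in resting blood cells and tends to increase with age.

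The values are FPKM, that is, fragment counts normalized to transcript length and to the fragments mapped in the library, given to 2 decimals. Most genes of the table were at low levels. Of the 8003 genes, 2366 had a mean FPKM of at least 1 over the 6 libraries. The read depth behind the values is unknown, so counting noise at low levels cannot be told from differences between mice, of which there were few. The table holds genes that the authors had selected, and by its values that choice was made on this same difference between Akk and Ctrl. Before any scaling, 7966 genes had a lower mean and 37 a higher mean in the Akk group, and the group means were 1.5-fold or more apart for 7997 genes and closer for the other 6. A choice by the size of a difference does not by itself set its direction. Ctrl 1 held the highest unscaled value of the 6 libraries for 97.9% of genes. The part of Ctrl 1 in the direction was not tested. Because the genes were chosen on this difference, the direction is given as a description and not as a result. Each share of all genes given here is a share of genes chosen in this way.

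The Ctrl 1 library stood apart from the other 5. Its median FPKM over all genes was 1.41, against 0.35 in Ctrl 2 and 0.22 in Ctrl 3, and against 0.30, 0.18 and 0.19 in Akk 1, 2 and 3. Ctrl 1 held the highest of the 6 values for 97.9% of genes. The Ctrl group averaged 0.660 ± 0.653 (SD, n = 3) and the Akk group 0.223 ± 0.0666 (SD, n = 3), a log2 difference of -1.13, and of -0.35 without Ctrl 1. These are given as a description, with no test, because the genes were chosen on this difference. Each library was therefore divided by its own median and brought to a common level, and values after this step are called scaled FPKM. After scaling, Ctrl 1 was the highest library for 17.8% of genes. Scaling removes any shift that nearly all genes share, and because the selected genes had lower unscaled values in the Akk group, a gene that is higher on the scaled values was in most cases only less lower than the middle of the table before scaling. In a mixed tissue such as blood, fewer cells of a type and less RNA per cell cannot be told apart.

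**Figure D1:**
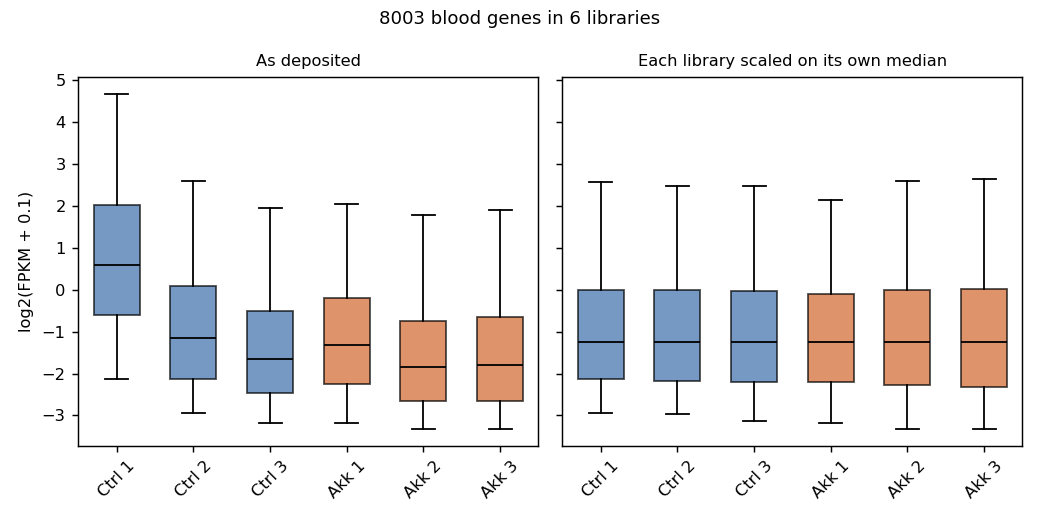
Distribution of log2(FPKM + 0.1) over the 8003 blood genes in each of the 6 libraries, as deposited (left) and after scaling each library on its own median (right); boxes span the middle 50% of genes, the line is the median and whiskers run from the 5th to the 95th percentile. As deposited, Ctrl 1 lies above the other 5 libraries, with a median of 1.41 FPKM against 0.18 to 0.35, and after scaling the 6 distributions lie together.

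On the scaled values the groups were alike for most genes. The log2 difference between Akk and Ctrl had a median of -0.03, and the middle 50% of genes lay between -0.22 and 0.13. Gene by gene, no difference passed the thresholds. With limma on log2(scaled FPKM + 0.1) and Benjamini-Hochberg adjustment over the 8003 genes, 0 genes (0.0%) were lower and 0 genes (0.0%) were higher at 1.5-fold or more with an adjusted p no higher than 0.05. The smallest adjusted p was 0.264. At an unadjusted p under 0.05, 272 genes were lower (3.4%) and 49 were higher (0.612%). All 3 Akk values lay below all 3 Ctrl values for 396 genes (4.95%) and above them for 235 genes (2.94%). Quantile normalization changed this split to 281 below and 396 above, so the excess of lower genes over the whole table depended on the scaling. The 6 libraries were also about as far apart within the groups as between them. Pearson's r across genes, which are not independent replicates, was 0.944 to 0.956 among Ctrl libraries, 0.940 to 0.951 among Akk libraries and 0.939 to 0.960 between the groups. A gene is described below as lower or higher by its values, with its unadjusted p, and none of these differences held after adjustment. Both kinds of p are given as a description and not as a test, since the genes were chosen on the unscaled difference between these groups.

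Most of the genes with the largest lower difference in the Akk group were interferon-stimulated genes. Among the 115 genes that were below without overlap and averaged at least 1 FPKM, 15 belonged to a hand-written list of interferon response genes, and so did 8 of the 12 with the largest difference. Among the 67 such genes that were above without overlap, 0 belonged to it. Those 12 were Oasl2, Ifit1, Rtp4, Oas1g, Cfb, Sdc3, Usp18, Ifit1bl1, Lgals3bp, Xaf1, Slfn8 and Prf1. The interferon list held 60 of the 8003 genes of the table and was chosen with earlier results of these data known. Counts of its members, here and below, are therefore a description and not a result.

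Ifit1 (NCBI gene 15957, chr19:34640889-34650009 on GRCm38.p6, as are the other positions), whose protein binds viral RNA that lacks the host's cap methylation, was at 10.8, 15.0 and 9.13 scaled FPKM in Ctrl 1, 2 and 3 and at 1.57, 4.17 and 2.80 in Akk 1, 2 and 3. All 3 Akk mice were well under the lowest control. The log2 difference was -2.07 (SE 0.36, unadjusted p = 0.000176, adjusted p = 0.266 from limma), or 4.19-fold lower. Oasl2 (NCBI gene 23962, chr5:114896926-114912245), a relative of the RNA-sensing oligoadenylate synthetases, was at 23.6, 56.8 and 55.4 scaled FPKM in the Ctrl mice against 3.35, 15.4 and 11.8 in the Akk mice. Here too the groups did not overlap, although Ctrl 1 was not far above Akk 2. Its log2 difference was -2.29 (SE 0.56, unadjusted p = 0.00218, adjusted p = 0.670 from limma).

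Rtp4 (NCBI gene 67775), a chaperone of cell surface receptors that interferon induces, was at 7.75, 7.38 and 4.57 scaled FPKM in the Ctrl mice against 0.934, 1.36 and 2.49 in the Akk mice. Its log2 difference was -2.04 (SE 0.36, adjusted p = 0.266 from limma). Akk 3 and Ctrl 3 were the nearest libraries, as they were for many genes of the list. Oas1g (NCBI gene 23960), an oligoadenylate synthetase, was at 1.22, 0.902 and 0.424 scaled FPKM in the Ctrl mice against 0.0859, 0.0894 and 0.203 in the Akk mice, with a log2 difference of -2.01 (SE 0.37). Ifi44 (NCBI gene 99899), a cytoplasmic protein induced by interferon, was at 0.840, 1.55 and 0.337 in the Ctrl mice against 0.0966, 0.0537 and 0 in the Akk mice. Its log2 difference of -2.60 was the most negative of the list and rests on low values, and with a pseudocount of 1 it was -0.81.

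The rest of the 12 were lower by smaller amounts. Usp18 removes the Isg15 tag from proteins and limits receptor signalling, and it was at 2.05, 2.93 and 1.40 scaled FPKM in the Ctrl mice against 0.472, 0.698 and 0.898 in the Akk mice (log2 difference -1.48, SE 0.32). Xaf1, a regulator of cell death, was at 2.02, 4.23 and 2.91 in the Ctrl mice against 0.719, 1.32 and 1.29 in the Akk mice (log2 difference -1.37, SE 0.33). Ifit1bl1 and Slfn8 had log2 differences of -1.46 (SE 0.35) and -1.33 (SE 0.44). For Slfn8 the difference leaned on Ctrl 1, at 2.50 scaled FPKM against 0.947 and 0.556 in the other controls, and it was -0.74 without that library. Ifit3, chosen after its values were seen, leaned on Ctrl 1 more strongly, at 14.8, 3.87 and 0.893 in the Ctrl mice against 0.923, 0.358 and 1.00 in the Akk mice, and its groups overlapped. The Ifit and Oas families hold near-identical copies, so reads of Ifit1 and Ifit1bl1, or of Oas1g and its neighbors, may have been split between copies.

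The 4 genes of the 12 outside the interferon list have roles in immunity or on the cell surface. Cfb, complement factor B of the alternative pathway, was at 1.42, 0.552 and 0.176 scaled FPKM in the Ctrl mice against 0.0537, 0.0537 and 0.0847 in the Akk mice. Its log2 difference was -1.99 (SE 0.51), and -1.22 without Ctrl 1. Lgals3bp, a secreted protein that binds galectins, was at 25.1, 19.5 and 11.1 in the Ctrl mice against 4.37, 8.07 and 7.37 in the Akk mice (log2 difference -1.45, SE 0.36, 2.73-fold lower). Sdc3, a heparan sulfate proteoglycan of the cell surface, had a log2 difference of -1.48 (SE 0.48), and -0.92 without Ctrl 1. Prf1, perforin, is described with the NK cell genes.

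**Figure D2:**
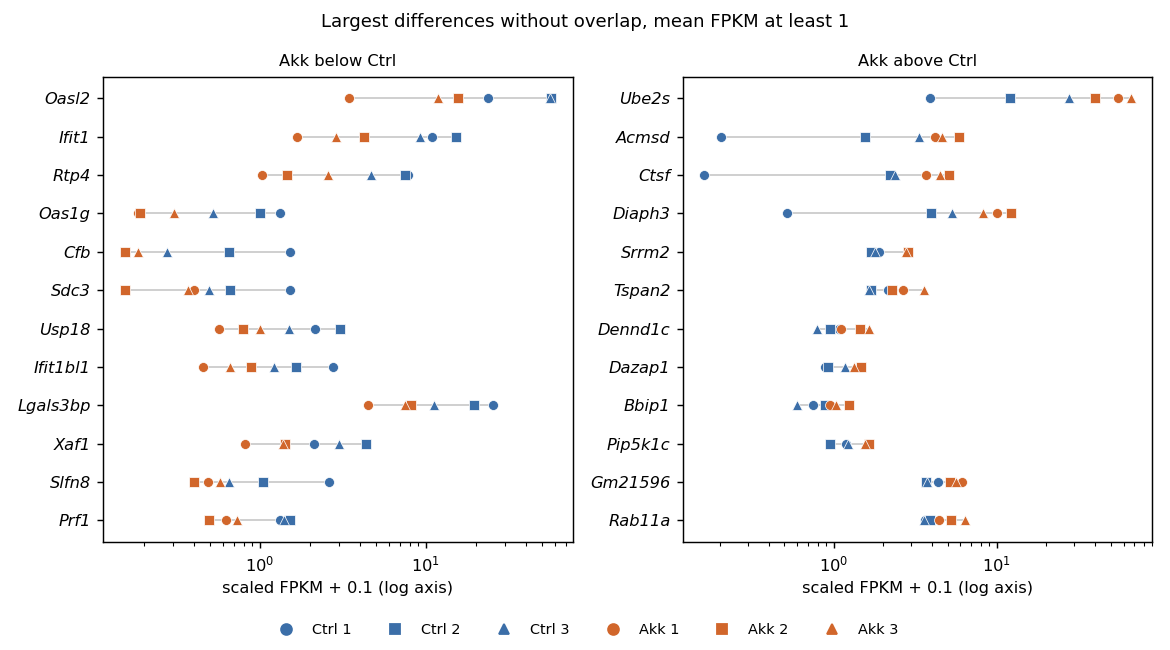
Scaled FPKM + 0.1 in each of the 6 libraries, on a log axis, for the 12 largest lower (left) and higher (right) differences among genes averaging at least 1 FPKM whose groups do not overlap; color gives the group and the symbol the replicate number. On the left the Akk points lie to the left of all Ctrl points, and on the right the 4 genes with the largest differences have their lowest value in Ctrl 1.

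Of the 67 listed interferon response genes, 60 were in the table. Their log2 differences had a median of -0.89, with the middle 50% between -1.39 and -0.63, against a median of -0.03 over all genes. The difference was negative for 57 of the 60, and 18 (30.0%) were below without overlap, where 4.95% of all genes were. None of the 60 was above without overlap. An unadjusted p under 0.05 with a lower value was found for 31 of the 60 genes, where 3.4% of all genes had it. The smallest adjusted p among the 60 was 0.266 from limma.

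By role, the values were as follows for 2 genes at the receptor and 2 of the transcription factors. Jak1, a receptor kinase, had a log2 difference of -0.15 and Ifnar1, a receptor chain, of 0.10, both with overlapping groups. Irf9, a DNA-binding factor of the pathway, was below without overlap, at 2.53, 1.97 and 1.61 in the Ctrl mice against 1.07, 0.751 and 1.37 in the Akk mice (log2 difference -0.89, SE 0.28). Irf7, the factor that amplifies interferon production, was at 40.1, 182 and 116 in the Ctrl mice against 16.7, 44.7 and 33.6 in the Akk mice. Akk 2 exceeded Ctrl 1, so the groups overlapped, and the log2 difference was -1.69 (SE 0.58, unadjusted p = 0.0151 from limma).

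Of the 4 sensors of viral RNA in the cytosol that are given here, Ifih1 and Ddx58 were below without overlap, while Dhx58 and Eif2ak2 had overlapping groups. Ifih1, the sensor MDA5, was at 1.22, 0.718 and 0.468 scaled FPKM in the Ctrl mice against 0.236, 0.197 and 0.407 in the Akk mice (log2 difference -1.20, SE 0.35). Ddx58, the sensor RIG-I, was at 1.75, 0.856 and 0.644 in the Ctrl mice against 0.580, 0.501 and 0.424 in the Akk mice (log2 difference -0.87, SE 0.34), and its difference was -0.47 without Ctrl 1. Dhx58, a relative of both that tunes their signal, was at 1.21, 0.975 and 0.468 in the Ctrl mice against 0.365, 0.250 and 0.627 in the Akk mice (log2 difference -0.92, SE 0.37), with Akk 3 above Ctrl 3. Eif2ak2, the kinase PKR, had a log2 difference of -0.69 (SE 0.40). Herc6, the mouse ligase that attaches Isg15 to proteins, was at 0.717, 0.883 and 0.834 in the Ctrl mice against 0.215, 0.447 and 0.356 in the Akk mice (log2 difference -1.09, SE 0.27). Parp12, an ADP-ribosyltransferase that blocks translation, had a log2 difference of -1.64 (SE 0.36), and -1.13 without Ctrl 1. The GTPases Igtp and Gbp7, which act on vacuoles with intracellular microbes, had log2 differences of -0.77 (SE 0.31) and -0.90 (SE 0.32) without overlap. Irf7, Irf9, Jak1, Ifnar1, Ifih1, Dhx58, Eif2ak2, Herc6, Parp12, Igtp and Gbp7 were chosen after their values were seen.

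The exceptions were few. Ifnar1, Ifitm2 and Trim25 were the 3 listed genes with a positive log2 difference, of 0.10, 0.30 and 0.34, each with overlapping groups. Isg15, the ubiquitin-like protein with the highest level of the list, followed another pattern. It was at 45.8, 409 and 389 scaled FPKM in the Ctrl mice against 77.3, 196 and 128 in the Akk mice, so that Ctrl 1 was the lowest of all 6. Its log2 difference was -0.63 (SE 0.81), and -1.67 without Ctrl 1. Kel, a blood group protein of the red cell, had a like order of values, at 0.884, 10.6 and 10.7 scaled FPKM in the Ctrl mice against 3.31, 7.15 and 5.93 in the Akk mice. The 8 erythroid marker genes in the table, Kel among them, summed to 5.80 in Ctrl 1, the lowest of the 6, against 23.5 in Ctrl 3. Not all of the 8 had this order, as Tal1 was at 1.83, 2.11 and 1.68 in the Ctrl mice against 1.08, 1.86 and 1.91 in the Akk mice. Whether red cell messages have a part in the values of Isg15 was not tested.

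The list did not set each Akk mouse apart from each control to the same degree. Expressed as the deviation of a gene's log2 level from its mean over the 6 libraries, the median of the 60 genes was 0.95, 0.47 and -0.03 in Ctrl 1, 2 and 3 and -0.75, -0.59 and -0.11 in Akk 1, 2 and 3. Ctrl 3 and Akk 3 thus lay close to each other, while Ctrl 1 and Akk 1 lay at the ends. Without Ctrl 1 the list median was -0.65, without Akk 1 it was -0.84, and without both it was -0.53. In the last case 24 of the 60 genes were below without overlap (40.0%) and 4 above (6.67%), where 16.8% of all genes were below and 17.2% above. Leaving out Ctrl 3 raised the number below without overlap to 40 of 60, where 9.66% of all genes were below. Leaving out Akk 3 raised it to 39, where 10.1% were. Ctrl 3 and Akk 3 were picked for this because they lay close to each other on these same genes. The rise was thus built in and is not a result.

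**Figure D3:**
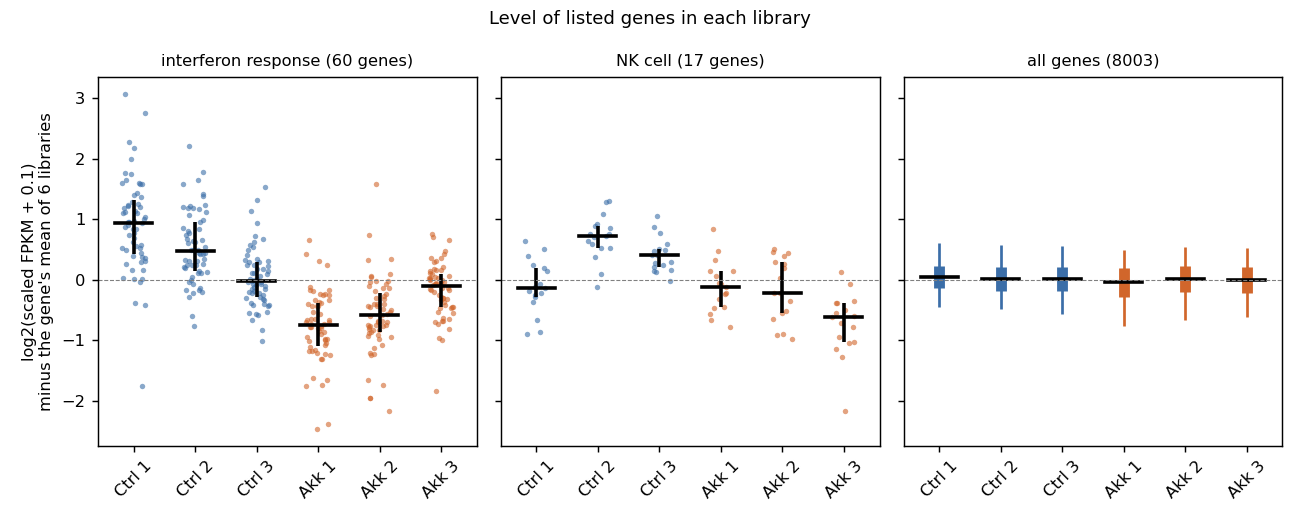
Log2(scaled FPKM + 0.1) in each library minus the gene's mean over the 6 libraries, for the 60 interferon response genes (left), the 17 NK cell marker genes (middle) and all 8003 genes (right); points are genes, horizontal lines are medians and thick bars the middle 50%, with thin lines from the 5th to the 95th percentile at the right. The interferon list steps down from 0.95 in Ctrl 1 to -0.03 in Ctrl 3 and lies at -0.75, -0.59 and -0.11 in the Akk libraries, while the medians of all genes stay near 0.

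The sequence before the start of these genes was read for the ISRE, searched on both strands as GAAA followed by any 2 bases and a second GAAA, in RefSeq windows of 250 bases before to 50 bases after each annotated start (GRCm38.p6). The motif was present in 3.44% of all 32851 windows. Of the genes of the blood table, 6438 had a window under their symbol, and 271 of these (4.21%) held the motif. On the interferon list 28 of 50 genes with a window held it. Of the 18 listed genes below without overlap, 14 had a window, 8 held the motif in it and 6 held it before the start. These 6 are shown as examples, with the motif in capitals, and were picked for having both the motif and a difference without overlap. The motif was about as frequent among the listed genes below (8 of 14) as on the whole list (28 of 50). Whether the motif has a part in the differences was not tested. Each stretch is written 5′ to 3′ on the strand of its gene, where the capitals TTTC at both ends mark a motif that lies on the other strand.
Ifit1 (chr19:34640779-34640838, plus strand): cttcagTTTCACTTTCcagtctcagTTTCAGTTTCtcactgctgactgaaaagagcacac
Oas1g (chr5:120887614-120887650, minus strand): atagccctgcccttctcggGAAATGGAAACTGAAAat
Ifit1bl1 (chr19:34602038-34602097, minus strand): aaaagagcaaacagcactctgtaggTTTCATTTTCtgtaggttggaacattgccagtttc
Slfn8 (chr11:83020824-83020883, minus strand): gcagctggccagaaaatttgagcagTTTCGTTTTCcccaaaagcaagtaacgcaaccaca
Gbp7 (chr3:142530258-142530317, plus strand): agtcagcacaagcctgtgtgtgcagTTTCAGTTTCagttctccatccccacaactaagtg
Igtp (chr11:58199497-58199555, plus strand): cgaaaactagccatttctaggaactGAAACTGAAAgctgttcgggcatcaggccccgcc

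Ifit1 held 2 separate copies in the stretch shown and Oas1g held 2 that overlap, while the other 4 held 1 copy each before the start. Their levels differed widely even so, since Ifit1 averaged 11.6 ± 3.03 scaled FPKM in the controls and Oas1g 0.850 ± 0.402 (SD, n = 3 each). Across the table, the 271 genes with the motif had a median log2 difference of -0.17 and 11.4% of them were below without overlap. The 6167 genes without it had a median of -0.03 and 4.41% were below. Outside the interferon list, 243 genes held the motif, with a median of -0.13 and with 23 genes below (9.47%). Phf11a, Ifi206, Trim12c, H2-T22, B2m and Gzma were among these 23, of which Phf11a, Ifi206 and Gzma were chosen after their values were seen. The list was hand-written and leaves out relatives of its members, such as Ifi206 beside Ifi204 and Phf11a beside Phf11d. The 243 genes are therefore not a set free of interferon response genes. A second interferon motif, the GAS element of type II interferon, searched as TTCNNNGAA, was present in 533 genes of the table. Their median log2 difference was -0.05, and 4.88% of them were below without overlap against 4.69% of the genes without it. A match of letters is not a site of binding, and the windows hold only the sequence near the start.

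Genes of NK cells, lymphocytes that kill infected cells, also had lower values in the Akk mice for most of the list. All 17 listed NK cell markers were in the table, 16 had a negative log2 difference, the median was -0.60 and 5 (29.4%) were below without overlap, against 4.95% of all genes. Prf1 (NCBI gene 18646, chr10:61297751-61304684), the pore-forming protein of killer cells, was at 1.21, 1.43 and 1.30 scaled FPKM in the Ctrl mice against 0.526, 0.394 and 0.627 in the Akk mice. The values within each group were close together and the groups were far apart, with a log2 difference of -1.22 (SE 0.24, unadjusted p = 0.000517, adjusted p = 0.345 from limma). Ncr1, the activating receptor NKp46, was at 0.660, 0.938 and 0.468 in the Ctrl mice against 0.258, 0.322 and 0.102 in the Akk mice (log2 difference -1.29, SE 0.35). Gzma, a granule protease, was at 8.34, 12.9 and 10.6 in the Ctrl mice against 5.45, 5.15 and 5.80 in the Akk mice (log2 difference -0.92, SE 0.25). Gzmb, the other main granzyme, and Klrg1, an inhibitory receptor of mature killer cells, had log2 differences of -0.82 (SE 0.28) and -0.94 (SE 0.30) without overlap. Gzmb, like Gzma, was chosen after its values were seen.

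The whole NK cell list was less clear-cut than these 5 genes. Its 17 genes summed to 34.2, 80.3 and 74.1 scaled FPKM in the Ctrl mice and to 40.1, 49.3 and 27.7 in the Akk mice, so that Ctrl 1 lay within the Akk range. Without Ctrl 1 the list median was -0.81. Ccl5, the chemokine with the highest level of the list, was at 12.9, 43.5 and 43.1 in the Ctrl mice against 20.0, 28.8 and 12.1 in the Akk mice, and its groups overlapped. The killer cell lectin-like receptors, a gene family with 21 members in the table, had a median of -0.56, and 3 (14.3%) were below without overlap, against 4.95% of all genes. This family shares members with the NK cell list, among them Klrg1, counted as below in both, so it is not a separate set of genes. T cell markers showed less of a difference. The 16 T cell genes had a median of -0.19, with 0 below and 0 above without overlap, and they were low in Ctrl 1 and Akk 3, at 10.8 and 11.3 summed scaled FPKM against 19.5 to 24.7 in the other libraries. Without Ctrl 1 the T cell median was -0.51. Only 3 of 19 listed B cell markers were in the table, with Ms4a1, the surface protein CD20, at 2.40, 3.54 and 3.35 in the Ctrl mice against 4.83, 2.74 and 2.91 in the Akk mice.

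Monocyte markers were also lower in their median. Of 20 listed genes 17 were in the table, 15 had a negative log2 difference, the median was -0.66 and 3 (17.6%) were below without overlap, against 4.95% of all genes. Treml4, a receptor of the Ly6C-low monocytes that patrol vessels, was at 2.46, 3.04 and 2.69 scaled FPKM in the Ctrl mice against 1.73, 1.07 and 1.88 in the Akk mice (log2 difference -0.80, SE 0.26, unadjusted p = 0.0122 from limma). Cx3cr1, the fractalkine receptor of the same cells, was at 1.08, 0.993 and 0.893 in the Ctrl mice against 0.794, 0.268 and 0.813 in the Akk mice, and for this gene Akk 2 was far under the other Akk mice. Ly6c2, the surface antigen of classical monocytes, was at 38.4, 25.6 and 10.1 in the Ctrl mice against 10.1, 5.04 and 12.7 in the Akk mice (log2 difference -1.30, SE 0.50), with overlap, and it was chosen after its values were seen. Lyz2, lysozyme, which neutrophils share, showed no such order, at 164, 152 and 85.9 against 115, 125 and 183. The summed monocyte markers ranged from 133 to 259 in the Ctrl mice and from 153 to 237 in the Akk mice. Without Ctrl 1 the list median was -0.43.

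The markers of other blood cells differed more between mice than between groups. The 22 neutrophil genes summed to 375, 405 and 463 scaled FPKM in the Ctrl mice and to 172, 722 and 441 in the Akk mice, so that both the lowest and the highest library were of the Akk group. Their median log2 difference was -0.35 and became 0.10 without Akk 1. The difference over all 6 libraries was negative for 18 of the 22 genes and positive for 4. S100a9, an abundant calcium-binding protein of neutrophils, was among these 4, with a log2 difference of 0.10. It was at 143, 182 and 167 in the Ctrl mice against 80.8, 360 and 185 in the Akk mice. The 22 platelet genes had a median of -0.08, and of 0.25 without Akk 1, with sums of 1068 to 1465 in the Ctrl mice and 883 to 1776 in the Akk mice. Ppbp, a platelet chemokine, was at 373, 249 and 165 in the Ctrl mice against 175, 268 and 339 in the Akk mice. Of 44 erythroid markers only 8 were in the table, and the globin genes were not analysed here. The 8 had a median of -0.27, and of -0.95 without Ctrl 1, while the 8 dendritic cell genes had a median of -0.15 and the 4 basophil, mast cell and eosinophil genes of -0.22. Akk 1, the library with the lowest neutrophil and platelet sums, was also the lowest for the interferon list, and the part of cell makeup in the interferon values was not tested. No leave-out of Ctrl 1, of Akk 1 or of both turned the median of the interferon, NK cell or monocyte list positive.

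**Figure D4:**
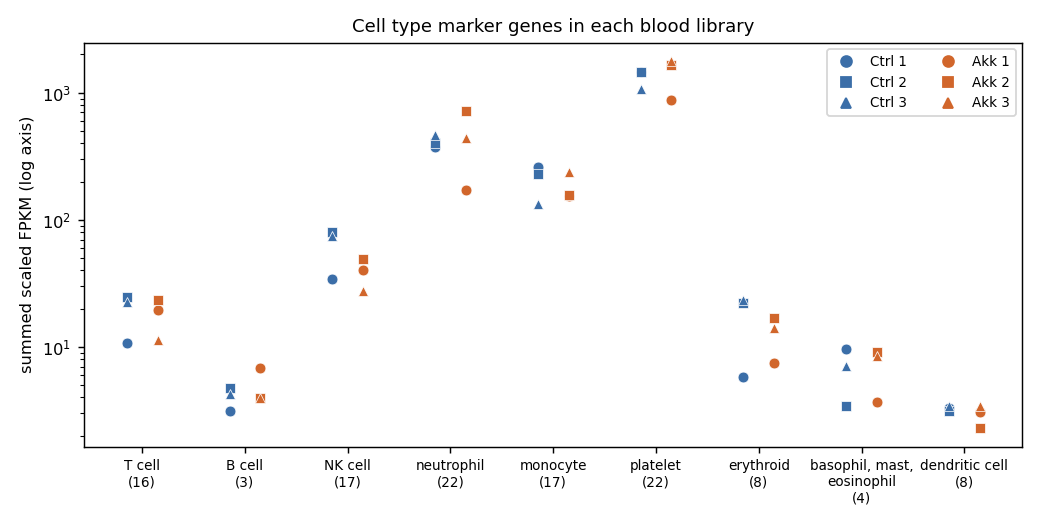
Summed scaled FPKM, on a log axis, of the marker genes of 9 kinds of blood cells in each library, with the number of genes in the table in parentheses; color gives the group and the symbol the replicate number. The groups overlap for each kind of cell, and Akk 1 is the lowest library for the neutrophil and platelet sums, at 172 and 883.

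Antigen presentation genes of class I and class II, which display peptides to T cells, formed a list with 22 genes in the table, none of them a class II chain. Of these, 6 (27.3%) were below without overlap, against 4.95% of all genes, namely H2-T22, B2m, H2-Q6, H2-D1, H2-K1 and Erap1, and 0 were above. The list median was -0.26, and -0.14 without Ctrl 1. B2m (NCBI gene 12010, chr2:122147687-122153082), the light chain of all class I molecules and the gene with the second highest level in each library, was at 862, 1189 and 881 scaled FPKM in the Ctrl mice against 384, 564 and 605 in the Akk mice. Its log2 difference was -0.93 (SE 0.61, unadjusted p = 0.159 from limma), and quantile normalization, under which a gene with the same rank in every library takes the same value, left no difference. H2-T22, a nonclassical class I molecule, was at 10.3, 13.7 and 7.98 in the Ctrl mice against 4.96, 5.44 and 5.76 in the Akk mice (log2 difference -0.94, SE 0.27, unadjusted p = 0.0057 from limma). The classical heavy chains H2-D1 and H2-K1 had log2 differences of -0.62 (SE 0.36) and -0.58 (SE 0.32), and were picked with their values in view. The listed heavy chains H2-T24, H2-Q7, H2-T23, H2-Q4 and H2-M3 had overlapping groups, with log2 differences of -0.49, -0.36, -0.10, -0.08 and 0.19. The class I genes of this region are near-identical in part, so reads may have been split between them.

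Genes of innate inflammation, the subject of the study's questions about blood, lay near the middle of the table as groups. The 36 inflammasome and NOD-like receptor genes had a median log2 difference of -0.13, with 4 (11.1%) below and 0 above without overlap, against 4.95% and 2.94% of all genes. Without Ctrl 1 the median was 0.005, with 8 below and 4 above, or 22.2% and 11.1%, where 9.83% of all genes were below and 7.41% above. Casp12 (NCBI gene 12364, chr9:5345442-5373034), an inflammatory caspase, was at 0.217, 0.175 and 0.278 scaled FPKM in the Ctrl mice against 0.0215, 0.0537 and 0.0339 in the Akk mice. The groups were far apart at a very low level, with a log2 difference of -1.24 (SE 0.22, unadjusted p = 0.000237, adjusted p = 0.266 from limma). Casp8, which links death receptors to inflammasomes, was at 0.970, 0.791 and 0.688 in the Ctrl mice against 0.655, 0.411 and 0.305 in the Akk mice (log2 difference -0.76, SE 0.29). The central genes of the inflammasome overlapped between the groups. Nlrp3, its sensor, was at 1.27, 0.431 and 0.498 in the Ctrl mice against 0.730, 0.698 and 1.36 in the Akk mice. Il1b, its main cytokine product, was at 39.8, 12.9 and 17.4 in the Ctrl mice against 21.9, 21.9 and 34.5 in the Akk mice, with the Akk mice inside the Ctrl range.

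The 32 genes of TNF and NF-kB signalling had a median of 0.00, with 1 below and 1 above without overlap. Among 35 Toll-like and C-type lectin receptor genes the median was -0.13, and 0.07 without Ctrl 1, and 2 (5.71%) were below, a share near the 4.95% of all genes. Tlr7, the endosomal sensor of single-stranded RNA, which itself leads to interferon, was one of these, at 1.48, 0.865 and 0.688 scaled FPKM in the Ctrl mice against 0.386, 0.429 and 0.474 in the Akk mice. Its log2 difference was -1.01 (SE 0.29, unadjusted p = 0.00629 from limma), and -0.69 without Ctrl 1. The 43 chemokine, cytokine and receptor genes had a median of -0.16, and of -0.01 without Ctrl 1, with 4 (9.30%) below and 2 (4.65%) above, against 4.95% and 2.94% of all genes. Il16, a chemoattractant of CD4+ cells, was at 2.25, 1.98 and 2.41 in the Ctrl mice against 1.23, 1.68 and 1.85 in the Akk mice (log2 difference -0.47, SE 0.24). Its difference was -0.31 without Akk 1.

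The 40 insulin and mTOR signalling genes had a median of 0.03, the 27 immediate-early genes of 0.07, the 17 chaperones of 0.12, the 35 proteasome subunits of 0.11 and the 35 splicing factors of 0.11. None of these lists had more than 2 genes without overlap in either direction in the 6 libraries. The immediate-early genes leaned on Ctrl 1, and without it their median was 0.29 and 9 of the 27 (33.3%) were above without overlap, against 7.41% of all genes. Broad families lay as close to the middle, with medians of -0.03 for 228 zinc finger genes, -0.08 for 136 solute carriers, 0.02 for 107 ubiquitin enzymes, -0.05 for 35 vesicle and lysosome genes, 0.02 for 39 DEAD and DEAH box helicases and -0.01 for 25 histone genes. The nuclear genes of mitochondria went to either side, with medians of -0.10 for 48 ribosomal proteins and 0.16 for 28 genes of the respiratory chain. The 8 Hmg proteins, chromatin proteins that bend or loosen DNA, had a median of -0.09. Hmgb2, the member with the highest level, was at 5.93, 5.78 and 5.52 scaled FPKM in the Ctrl mice against 5.02, 4.60 and 5.41 in the Akk mice. The groups did not overlap, but the log2 difference was small, at -0.20 (SE 0.22). Trp53, the tumor suppressor p53, was at 1.08, 1.36 and 1.60 in the Ctrl mice against 1.74, 1.16 and 1.14 in the Akk mice, with group means of 1.35 in both. In the cell cycle list, with a median of -0.06 over 21 genes, the cyclin Ccnd2 was below without overlap (log2 difference -0.56, SE 0.24).

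**Figure D5:**
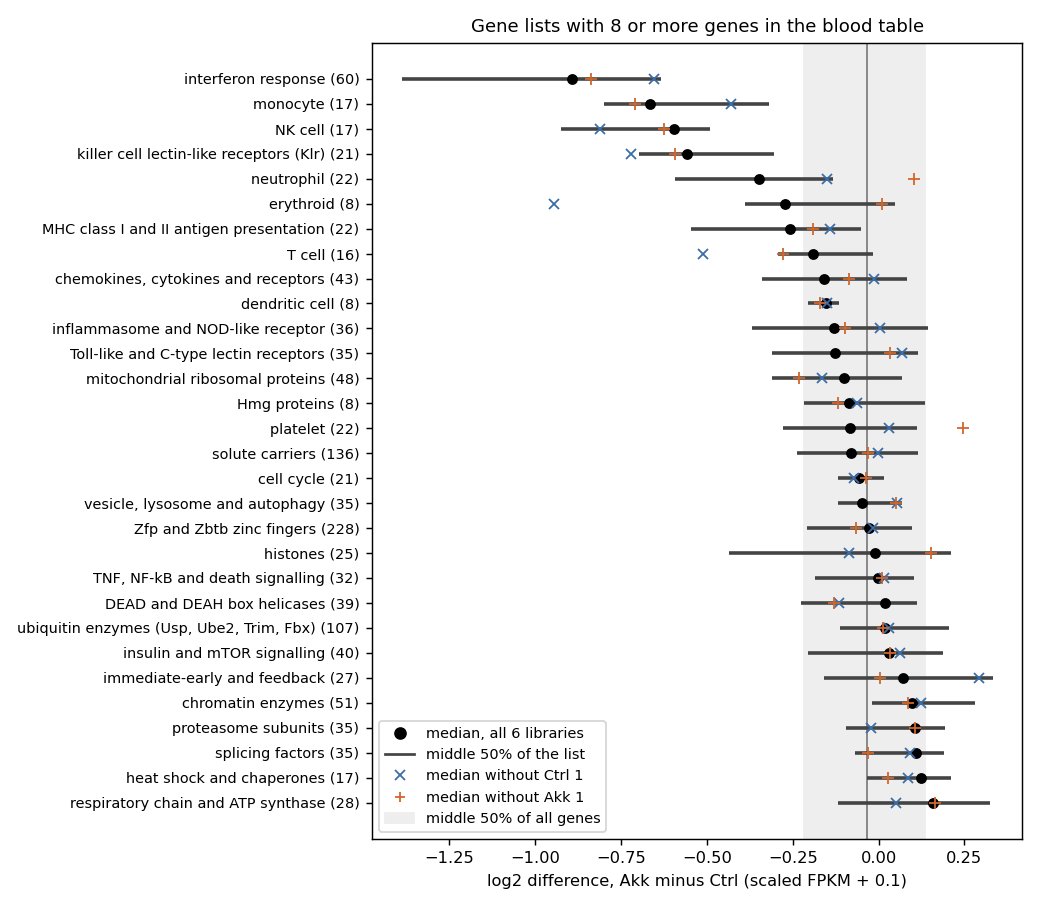
Median log2 difference, Akk minus Ctrl, of each gene list with 8 or more genes in the blood table (number in parentheses) on the log2(scaled FPKM + 0.1) scale; black points are medians over all 6 libraries, lines the middle 50% of each list, crosses and plus signs the medians without Ctrl 1 and without Akk 1, and the grey band the middle 50% of all genes around its median of -0.03. The interferon response, monocyte and NK cell lists lie at the lower end, at -0.89, -0.66 and -0.60, and the neutrophil and platelet medians move to 0.10 and 0.25 without Akk 1.

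In the higher direction the largest differences were enlarged by low scaled values in Ctrl 1, and stayed positive, at 0.92 to 1.53, without that library. Ube2s (NCBI gene 77891, chr7:4808014-4812340), a ubiquitin-conjugating enzyme of mitotic exit, was at 3.82, 11.9 and 27.7 scaled FPKM in the Ctrl mice against 55.6, 39.9 and 66.7 in the Akk mice, a log2 difference of 2.28 (SE 0.60, unadjusted p = 0.00349, adjusted p = 0.797 from limma). Without Ctrl 1 it was 1.53. Diaph3, a formin that builds actin filaments, was at 0.416, 3.85 and 5.24 in the Ctrl mice against 9.98, 12.2 and 8.12 in the Akk mice, with a log2 difference of 2.18 (SE 0.71), and 1.12 without Ctrl 1. Acmsd, an enzyme of tryptophan breakdown, and Ctsf, a lysosomal protease, were at 0.105 and 0.0617 in Ctrl 1, against 1.46 to 3.26 in the other controls and 3.60 to 5.80 in the Akk mice. Their log2 differences of 2.24 (SE 0.80) and 2.21 (SE 0.84) became 1.07 and 0.92 without Ctrl 1. The 4 genes were those averaging at least 1 FPKM among the 37 that had a higher unscaled mean in the Akk group, so their direction did not depend on scaling. The part of Ctrl 1's low red cell marker level in these genes was not tested.

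The next genes in this direction had small differences and small spreads. Srrm2, a scaffold of nuclear speckles, was at 1.81, 1.59 and 1.70 scaled FPKM in the Ctrl mice against 2.78, 2.77 and 2.68 in the Akk mice. The values within each group lay close together, and the log2 difference was 0.66 (SE 0.21, unadjusted p = 0.0109, adjusted p = 0.914 from limma). Tspan2, a tetraspanin, was at 2.05, 1.59 and 1.55 in the Ctrl mice against 2.55, 2.18 and 3.51 in the Akk mice (log2 difference 0.62, SE 0.25). Rab11a, a GTPase of recycling endosomes, was at 3.53, 3.80 and 3.51 in the Ctrl mice against 4.31, 5.17 and 6.29 in the Akk mice (log2 difference 0.51, SE 0.24). Dennd1c, Dazap1, Bbip1, Pip5k1c and Gm21596 had log2 differences between 0.52 and 0.58. For these 8 genes, as for the higher genes of the next paragraph, the direction turned with no scaling between libraries, where each had a lower value in the Akk group.

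Chromatin enzymes were a list with more genes in the higher than in the lower direction. Of 51 genes, 37 had a positive log2 difference on the scaled values, the median was 0.10, 6 (11.8%) were above without overlap, against 2.94% of all genes, and 1 was below. With no scaling between libraries the median was -0.81, with 0 above and 3 (5.88%) below, where 15.4% of all genes were below and 0.175% above. Smarca2, an ATPase of the BAF remodelling complex, was at 0.445, 0.607 and 0.307 scaled FPKM in the Ctrl mice against 0.730, 0.698 and 0.610 in the Akk mice (log2 difference 0.53, SE 0.27). Eed, a core subunit of the Polycomb complex that writes H3K27 methylation, had a log2 difference of 0.37 (SE 0.24), and Ezh1, a catalytic subunit of the same complex, was the gene below, with -0.38 (SE 0.23). Hdac1, a histone deacetylase picked with its values in view, differed by 0.37 (SE 0.24). Cdkn1b, the cell cycle inhibitor p27, was at 2.97, 2.50 and 2.96 in the Ctrl mice against 4.27, 3.85 and 3.64 in the Akk mice (log2 difference 0.47, SE 0.22). With no scaling, Smarca2, Eed, Hdac1 and Cdkn1b each had a lower value in the Akk group.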

How the data were processed

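RNA from blood of 3 Ctrl and 3 Akk mice was sequenced on the BGISEQ-500. Per the paper's methods the authors cleaned the reads, mapped them with HISAT2 and Bowtie2 and computed expression with RSEM, whereas the submitters' processing notes name TopHat2, Cufflinks and GRCm38. The deposited values are FPKM per library, rounded to 2 decimals by the authors, for genes they selected on this contrast, judged by the values, and the read depth is unknown. Groups came from the labels.

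Each library was divided by its median FPKM over the 8003 genes and multiplied by the geometric mean of the 6 medians. Log2(scaled FPKM + 0.1), which understates changes of low genes, was compared with limma 3.58.1 (R 4.3.3, intensity trend) and Benjamini-Hochberg adjustment, at the fold change of 1.5 and adjusted p of 0.05 of the paper's methods. The step was tested on simulated data. Lists were described by counts and medians, with no list test. Named genes were, per direction, the 12 largest differences without overlap at a mean FPKM of at least 1, per list the highest member and up to 2 per direction without overlap at a mean of at least 0.5, genes named by the study, and the 3 highest with a higher unscaled mean. Members and lists (36 in all) were chosen with earlier results of these data known. Promoter sequences are from RefSeq. The alternatives were other scalings, pseudocounts of 1 and 0.01, a filter at a mean FPKM of 1, other variance models, a replicate block and each library left out. Other tools were matplotlib 3.10.9, scipy 1.17.1, numpy 2.4.6 and pandas 2.3.3 in Python 3.11.15. Hippocampus values were not used for these results. A result is not reported here.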

Additional observations from a re-analysis of the deposited data

Results flagged for a closer look

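No group was tested for a single deviating sample, because that test needs at least 4 samples in a group and each group had 3. The hippocampus table, the only other table, listed 0 of the 101 genes named by rule, so the named genes could not be set beside their values in a second tissue. The 2 tables shared 65 genes, which were not compared here.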

How the results depend on the processing

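The counts of 0 lower and 0 higher genes in limma were found again under each alternative scaling, pseudocount, filter, variance model, fold threshold and left-out library (0 to 0 in both directions over the 6 single leave-outs), except that log2 values centred on the library median gave 1 higher gene, Hist2h4, a histone gene picked with its values in view. It was at 0.0571, 0.110 and 0 scaled FPKM in the Ctrl mice against 0.515, 0.644 and 1.02 in the Akk mice. The log2 difference of the library medians ranged from -1.69 to -0.35 over the leave-outs. The fit with the replicate block called 0 genes, with 255 lower and 39 higher at an unadjusted p under 0.05 and a smallest adjusted p of 0.209. The numbers are those of different mice, and deviations of same-numbered libraries correlated at -0.08, -0.05 and -0.14 across genes, so the block changed no other call and was not used. With no scaling between libraries the direction turned for Srrm2 (-0.44), Tspan2 (-0.48), Dennd1c (-0.50), Dazap1 (-0.52), Bbip1 (-0.51), Pip5k1c (-0.54), Gm21596 (-0.60), Rab11a (-0.60), Cdkn1b (-0.64), Smarca2 (-0.49), Eed (-0.61) and Hdac1 (-0.69), by the construction of that setting, since the median of all genes was then -0.87. Below without overlap were 18 interferon genes in the scaled values, where 4.95% of all genes were, and 24 with no scaling, where 15.4% were. The count was 22 with centred log2 values (4.42% of all genes) and 21 with quantile normalization (3.51%). Among genes averaging at least 1 FPKM it was 15, where 4.86% of all such genes were below. Most values are low, and 919 genes were listed at 0 in at least 1 library, which limits what can be said of them.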
